A study of Mus musculus with 12 samples.

Results

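Chemokines and their receptors were followed in the mouse aorta, before and at day 3 of a challenge that produces aortic dissection. The members were the array probes whose design gene name was a numbered chemokine ligand (Ccl, Cxcl, Cx3cl or Xcl) or a numbered chemokine receptor (Ccr, Cxcr, Cx3cr or Xcr), with control spots left out. The rule used names only and no measured value. It found 70 probes of 54 genes among 55681 probes and 34797 names on the array. There were 35 ligand genes on 47 probes and 19 receptor genes on 23 probes.

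Chemokines are small secreted proteins that bind to matrix and vessel walls and direct leukocytes that carry the matching receptor, a G protein-coupled receptor of the cell surface. CC and CXC ligands differ in the spacing of their first cysteines, and most bind more than one receptor. In the wall of large arteries the Ccl2 and Ccr2 pair is known for drawing monocytes out of the blood, where they become macrophages.

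Aortic RNA was measured on 12 one-colour arrays, 3 per group. Aortas came from male mice of the strain given as 129S5/SvEvBrd, C57BL6 and SJL, and all groups were homozygous for the floxed Socs3 allele (Socs3fl/fl) after 3 generations of backcross to C57BL/6J. The WT groups were littermates without Cre. The groups named smSocs3-KO also carried SM22-Cre, a transgene that the SM22 promoter drives in smooth muscle, so that other cells of the aorta keep the gene. WT_pre and smSocs3-KO_pre were aortas without infusion. WT_d3 and smSocs3-KO_d3 were aortas after 3 days of beta-aminopropionitrile (BAPN), an inhibitor of collagen and elastin cross-linking, at 150 mg/kg/day together with the pressor peptide angiotensin II (AngII) at 1000 ng/kg/min from osmotic minipumps. The age of the mice was not in the labels.

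A level is the log2 signal of a probe minus the 75th percentile of its array, so that 0 is that percentile. A difference of levels is a log2 fold change. Brightness differs between probes, so levels were compared between groups for 1 probe and not between genes. Between 55.4% and 61.2% of probes were well above background on each array, no spot was saturated, and arrays of a group correlated at 0.964 to 0.992. Socs3, the targeted gene, had levels of 0.30, 0.32 and 0.75 in WT_pre, 2.21, 2.30 and 0.64 in WT_d3, 0.24, 1.14 and 1.46 in smSocs3-KO_pre, and 3.31, 2.28 and 4.13 in smSocs3-KO_d3. Levels in the smSocs3-KO groups were not lower than in WT, and the difference before challenge was 0.49 (limma adjusted p = 1.0), so that smSocs3-KO below is the name on the label. All 7 smooth muscle markers listed for the aorta passed the background filter. All 6 WT arrays and replicate 1 of smSocs3-KO_pre lay on 1 slide and the other 5 smSocs3-KO arrays on a second slide, so that genotype at day 3 and slide cannot be told apart. Replicate 4 of WT_d3 had the lowest level of its group for 27 of the 37 members tested, and replicate 1 of smSocs3-KO_pre for 28 of 37. The labels number the samples of a group without saying that each is a separate mouse, and p-values measure only the spread between these arrays.

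Of the 54 genes, 37 were well above background on every array of at least 1 group and were tested, 26 ligands and 11 receptors. Among these 37, 23 were well above background on all 12 arrays (18 ligands and 5 receptors). Another 8 (6 ligands and 2 receptors) passed this filter through a day 3 group only, and a gene that enters in this way must differ between groups to some extent. The 8 were Ccl3, Ccl4, Ccl17, Cxcl10, Cxcl13, Cxcl14, Ccr8 and Cxcr4.

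Many members lie side by side in the genome. With a gap of at most 500000 bases between probes, 23 of the 54 genes fell into 4 runs of 5 or more genes (mm9, the build of the array's probe positions). The first run, on chromosome 11 from 81850650 to 81990510, held Ccl2, Ccl7, Ccl11, Ccl12, Ccl8 and Ccl1. The second, also on chromosome 11, ran from 83339296 to 83478111 with Ccl5, Ccl9, Ccl6, Ccl3 and Ccl4. Chromosome 5 held Cxcl5, Cxcl3, Cxcl15, Cxcl1 and Cxcl2 between 91190490 and 91334593. Receptors made up the fourth run, on chromosome 9, with Ccr9, Cxcr6, Xcr1, Ccr1, Ccr3 and Ccr2 among its genes.

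Promoters of 5 ligands that rose with the challenge are shown because each holds a short motif in the 250 bases before its start site. Sequences are from RefSeq (GRCm38.p6), read 5′ to 3′ on the gene's strand, and the motif is in capitals. Ccl12 (chr11:82101595-82101844, plus strand) and Ccl8 (chr11:82114935-82115184, plus strand) hold the TATA box letters TATAAA at 31 and 32 bases before the start. Cxcl10 (chr5:92348890-92349139, minus strand) and Ccl19 (chr4:42756366-42756615, minus strand) hold letters like those of the interferon-stimulated response element (TTTC, any 2 bases, TTTC on either strand) at 213 and 208 bases. The array places its Ccl19 probes on the plus strand of chromosome 4, so that this promoter may not be that of the copy measured. Cxcl14 (chr13:56296552-56296801, minus strand) holds a STAT-like palindrome (TTCNNNGAA) at 191 bases and an interferon-element-like match at 172 bases.
Ccl12: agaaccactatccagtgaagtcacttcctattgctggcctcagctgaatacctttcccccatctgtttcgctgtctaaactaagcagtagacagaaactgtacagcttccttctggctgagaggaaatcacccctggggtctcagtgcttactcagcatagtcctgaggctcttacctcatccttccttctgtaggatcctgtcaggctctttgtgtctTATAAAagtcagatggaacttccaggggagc
Ccl8: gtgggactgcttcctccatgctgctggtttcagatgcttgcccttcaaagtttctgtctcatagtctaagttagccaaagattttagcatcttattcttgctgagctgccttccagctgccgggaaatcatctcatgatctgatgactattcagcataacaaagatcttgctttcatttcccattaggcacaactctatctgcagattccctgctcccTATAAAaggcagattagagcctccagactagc
Cxcl10: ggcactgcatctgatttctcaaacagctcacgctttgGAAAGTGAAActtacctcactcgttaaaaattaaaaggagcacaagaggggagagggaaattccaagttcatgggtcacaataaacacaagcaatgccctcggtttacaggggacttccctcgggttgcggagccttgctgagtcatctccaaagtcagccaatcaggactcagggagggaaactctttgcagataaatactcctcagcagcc
Ccl19: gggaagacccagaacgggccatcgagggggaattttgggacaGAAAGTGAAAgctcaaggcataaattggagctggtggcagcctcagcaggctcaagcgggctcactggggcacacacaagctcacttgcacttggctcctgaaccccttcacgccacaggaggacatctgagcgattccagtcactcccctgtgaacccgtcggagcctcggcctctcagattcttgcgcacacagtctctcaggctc
Cxcl14: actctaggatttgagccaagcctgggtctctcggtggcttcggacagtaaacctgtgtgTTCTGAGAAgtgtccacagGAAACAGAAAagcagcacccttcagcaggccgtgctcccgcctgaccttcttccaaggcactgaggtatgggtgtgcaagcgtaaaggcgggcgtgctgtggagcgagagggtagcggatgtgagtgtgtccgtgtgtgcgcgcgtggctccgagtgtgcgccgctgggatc

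Promoters were found for 39 of the 54 members, 12 of them genes that rose in the mean challenge response described next. TATAAA, searched on the gene's strand only, was in 5 of these 12, in 0 of the 3 that fell, in 4 of the 11 that did not pass the test, in 2 of the 13 that were too dim to test, and in 8.94% of the 27025 genes of the promoter table. The interferon-element letters, searched on both strands, were in 3 of the 12, in 0 of each of the other sets of members, and in 3.46% of all genes. Those 3 include Ccl19, whose promoter may not be that of the copy measured. STAT-like letters on both strands were in 2 of the 12, in 1 of the 11, in 0 of the 3 and of the 13, and in 8.13% of all genes. The NF-kB-like letters, GGG, any 2 bases and TTTCC, searched on both strands, were in 1 of the 12, in 0 of the 3, in 1 of the 11, in 4 of the 13, and in 1.65% of all genes. These are matches of letters and say nothing of binding.

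A larger part of the tested ligands than of the tested receptors was called higher with the challenge, in part through ligands whose entry into the test favours a rise. In the mean challenge response, the average of the day 3 minus pre difference in WT and in smSocs3-KO, 14 of 26 ligands rose and 1 fell, while 2 of 11 receptors rose and 2 fell (limma, adjusted p under 0.05). Ccl7, Cxcl14 and Ccl2 had the 3 largest differences, 4.20, 4.16 and 4.05 on the log2 scale. Of the receptors described below, Ccr9 had the lowest difference, -1.79, and Ccr2 the highest, 2.09. The 16 members that rose stand beside 13.6% of all 22761 genes that rose, and the 3 that fell beside 9.18% of genes that fell. The median difference was 1.15 over the ligands, 0.32 over the receptors and -0.05 over all genes tested. Of the ligands that rose, Ccl3, Ccl4, Ccl17, Cxcl10 and Cxcl14 had passed the background filter through a day 3 group only, which favours a rise. With the test restricted to genes well above background on all 12 arrays, 14 of 23 members were called, beside 25.6% of genes. That test held 18 ligands and 5 receptors, without the ligands just named. Of the 18 ligands, those then called higher were Ccl2, Ccl6, Ccl7, Ccl8, Ccl9, Ccl12, Ccl19, Ccl25, Cx3cl1 and, newly, Cxcl12, and Ccl27a was called lower. Of the 5 receptors, Ccr2 and Cx3cr1 were called higher and Cxcr6 lower. The difference between ligands and receptors was not tested. With slide as a block 17 of 37 were called, beside 18% of genes, without Cxcl10 and Cxcr6. Across the other ways of processing, the ligand median lay between 0.75 and 1.37 and the receptor median between 0.07 and 0.54. In bulk tissue a gain or loss of cells of a type and a change of RNA per cell cannot be told apart.

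**Figure D1:**
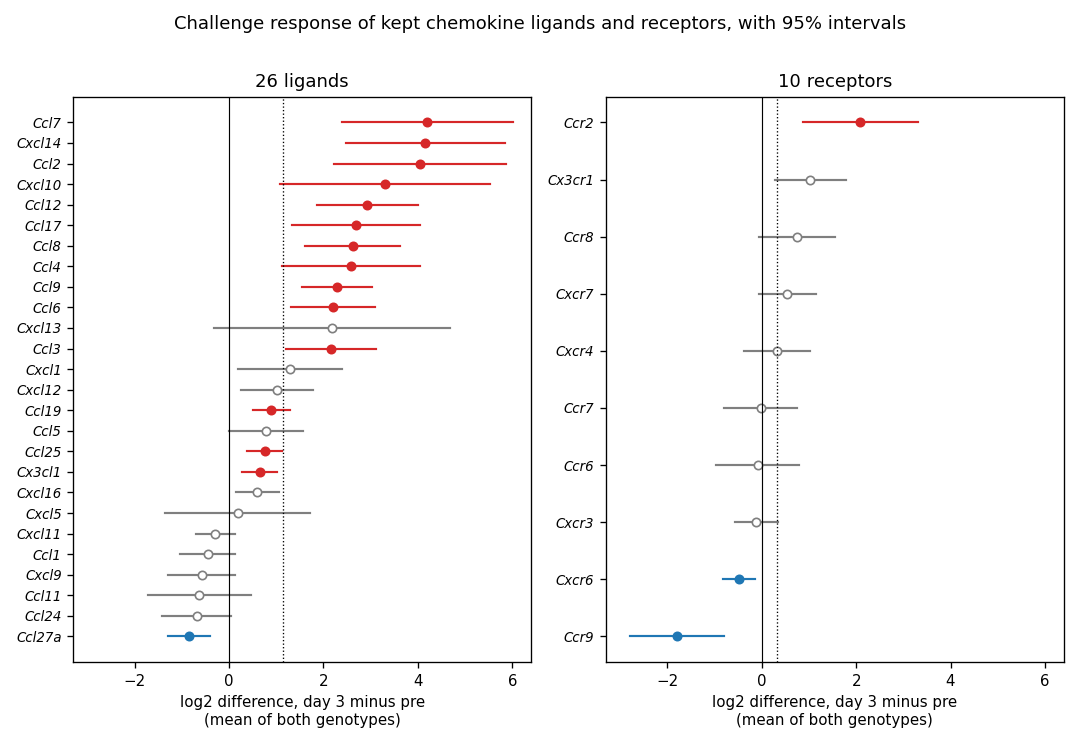
Mean challenge response of the 26 ligands and 10 of the receptors tested, as log2 difference (day 3 minus pre, averaged over WT and smSocs3-KO) on the horizontal axis with 95% intervals. Filled points have adjusted p under 0.05, red for higher and blue for lower at day 3, the dotted line is the median of the class over all members tested, and the points of Ccl1, Ccl3, Ccl17, Cxcl13 and Ccr8 are not measured folds because a group lay below background.

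In the first run on chromosome 11, 4 of the 6 ligands rose, beside 13.6% of all genes. Ccl2, the main ligand of Ccr2, had levels of -1.14, -1.13 and -0.63 in WT_pre, 4.34, 5.15 and -0.02 in WT_d3, -1.51, -0.09 and 0.27 in smSocs3-KO_pre, and 4.56, 1.83 and 4.22 in smSocs3-KO_d3. Every day 3 array was above every pre array of its own genotype, and replicate 4 of WT_d3 was more than 4 log2 units under the other WT_d3 arrays. Group means were -0.97 ± 0.29, 3.16 ± 2.78, -0.44 ± 0.94 and 3.53 ± 1.49 (SD, n = 3 each). The mean challenge response was 4.05 (SE 0.83, 95% interval 2.23 to 5.87, adjusted p = 0.0103), a 16.6-fold rise. With the replicate number as a block it was not called.

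Ccl7, a second Ccr2 ligand, had levels of -2.04, -1.63 and -0.88 in WT_pre, 4.11, 4.01 and -0.30 in WT_d3, -1.92, 0.57 and 0.05 in smSocs3-KO_pre, and 4.69, 2.04 and 4.80 in smSocs3-KO_d3. The day 3 arrays again lay above all pre arrays of their genotype, with replicate 4 of WT_d3 lowest of its group. Its mean challenge response was 4.20 (SE 0.82, adjusted p = 0.00926), or 18.4-fold, and was not called with the replicate number as a block. Ccl12, a mouse Ccr2 ligand closely related to Ccl2, had levels of -1.96, -1.34 and -0.17 in WT_pre, 2.69, 2.45 and 0.14 in WT_d3, -1.35, 0.17 and 0.17 in smSocs3-KO_pre, and 2.94, 2.26 and 2.60 in smSocs3-KO_d3. Day 3 and pre arrays did not overlap in either genotype, though the lowest WT_d3 array, 0.14, came close to the highest WT_pre array, -0.17. The rise was 2.93 (SE 0.48, adjusted p = 0.00631), or 7.60-fold, and passed the threshold under 21 of 21 alternatives.

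Ccl8, a chemokine known in mice as a Ccr8 agonist, had levels of -0.76, -0.48 and -1.53 in WT_pre, 2.57, 1.91 and 0.55 in WT_d3, -0.22, 2.23 and 1.72 in smSocs3-KO_pre, and 4.37, 3.70 and 3.56 in smSocs3-KO_d3. Day 3 arrays were above the pre arrays of the same genotype, and smSocs3-KO arrays were above the WT arrays of the same time. The mean challenge response was 2.62 (SE 0.45, adjusted p = 0.00691), or 6.13-fold. The other 2 genes of the run did not pass the test. Ccl11, the eosinophil attractant eotaxin, had levels of 0.53, 0.43 and 0.49 in WT_pre, -2.33, -0.51 and -0.07 in WT_d3, 0.13, 0.54 and 0.63 in smSocs3-KO_pre, and 2.05, -1.03 and 0.87 in smSocs3-KO_d3. It was lower on every WT_d3 array than on the WT_pre arrays and overlapped between the smSocs3-KO groups, with a mean challenge response of -0.63 (adjusted p = 0.367). Ccl1, a Ccr8 ligand at the end of the run, was near background and did not pass in the mean challenge response (adjusted p = 0.220). No WT_d3 array was well above background for it.

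**Figure D2:**
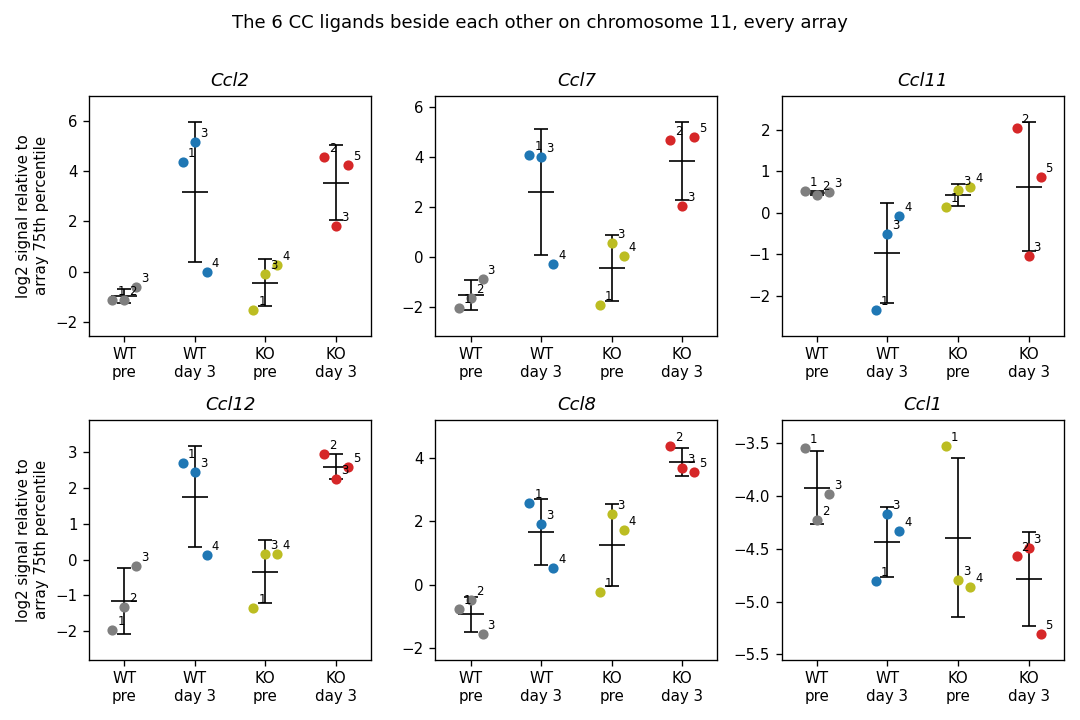
Levels (log2 signal relative to the 75th percentile of the array) of the 6 ligands of the first chromosome 11 run, 1 panel per gene and 1 point per array numbered by replicate, with the group mean as a dash and its SD as a bar (KO on the axis stands for smSocs3-KO). Ccl2, Ccl7, Ccl12 and Ccl8 lie higher on the day 3 arrays, replicate 4 of WT_d3 lies below the other WT_d3 arrays for these genes, and Ccl11 and Ccl1 show no common direction or a small one.

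In the second chromosome 11 run, 4 of 5 ligands rose, beside 13.6% of all genes. Among them, Ccl3 and Ccl4 had passed the background filter through smSocs3-KO_d3 only, which favours a rise. Ccl9, a macrophage and dendritic cell attractant that binds Ccr1, had levels of 1.78, 1.84 and 1.05 in WT_pre, 4.22, 4.32 and 2.47 in WT_d3, 1.91, 2.31 and 2.74 in smSocs3-KO_pre, and 4.99, 4.22 and 5.14 in smSocs3-KO_d3. Day 3 arrays were above the pre arrays in both genotypes. The mean challenge response was 2.28 (SE 0.33, adjusted p = 0.00481), or 4.87-fold, and passed the threshold under 21 of 21 alternatives. Its neighbour Ccl6, also a Ccr1 ligand, had levels of 2.41, 2.58 and 1.48 in WT_pre, 4.85, 4.92 and 3.02 in WT_d3, 2.70, 3.26 and 4.01 in smSocs3-KO_pre, and 5.27, 5.07 and 6.49 in smSocs3-KO_d3. The same separation was seen, and the difference was 2.20 (SE 0.40, adjusted p = 0.00782), or 4.58-fold.

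Ccl3 and Ccl4 encode the macrophage inflammatory proteins 1-alpha and 1-beta, which attract monocytes and T cells. Ccl3 had levels of -4.99, -5.47 and -5.20 in WT_pre, -1.79, -3.71 and -4.73 in WT_d3, -6.04, -6.50 and -5.07 in smSocs3-KO_pre, and -3.2, -3.16 and -3.73 in smSocs3-KO_d3. No pre array was well above background in either genotype, against 2 of 3 arrays in WT_d3 and 3 of 3 in smSocs3-KO_d3. Only a bound can be given, from the day 3 mean against the lowest signal above background in the pre group, and it was at least 1.91-fold higher in WT (adjusted p = 0.0973) and at least 2.20-fold higher in smSocs3-KO (adjusted p = 0.0585). In the mean challenge response Ccl3 was called higher (adjusted p = 0.00980). Ccl4 had levels of -3.65, -5.19 and -4.49 in WT_pre, -0.36, -1.84 and -4.47 in WT_d3, -4.82, -4.06 and -4.10 in smSocs3-KO_pre, and 0.21, -2.12 and -2.23 in smSocs3-KO_d3. The smSocs3-KO groups did not overlap, while replicate 4 of WT_d3 lay among the WT_pre arrays. The difference was 2.58 (SE 0.66, adjusted p = 0.0214), or 5.98-fold. It missed the threshold without replicate 2 of WT_pre and with the replicate number as a block. Ccl5, a product of T cells and platelets, had a mean challenge response of 0.78 that did not pass (adjusted p = 0.130).

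Among the CXC ligands only Cxcl10 and Cxcl14 were called in the mean challenge response. Cxcl14, a ligand of epithelia and fibroblasts whose receptor is not settled, had levels of -4.69, -3.72 and -3.44 in WT_pre, -0.65, -0.11 and -2.78 in WT_d3, -4.10, -0.54 and -2.14 in smSocs3-KO_pre, and 4.31, 1.06 and 4.47 in smSocs3-KO_d3. Day 3 arrays lay above the pre arrays in each genotype, and all smSocs3-KO_d3 arrays lay above all WT_d3 arrays. The mean challenge response was 4.16 (SE 0.76, adjusted p = 0.00781), or 17.8-fold. Cxcl10, an interferon-induced ligand of Cxcr3, had levels of -5.10, -3.45 and -4.62 in WT_pre, 0.34, 0.48 and -5.74 in WT_d3, -4.98, -3.99 and -3.19 in smSocs3-KO_pre, and -1.43, 1.42 and -0.56 in smSocs3-KO_d3. The smSocs3-KO groups did not overlap, and replicate 4 of WT_d3 was below every WT_pre array while the other WT_d3 arrays were far above them. Its response was 3.30 (SE 1.01, adjusted p = 0.0388), or 9.88-fold, and passed under 7 of 20 alternatives. Of the 12 arrays, leaving out any but replicate 4 of WT_d3 or replicate 2 of smSocs3-KO_d3 ended the call, with adjusted p up to 0.117 over the alternatives. Without replicate 4 of WT_d3 it was 4.33 (adjusted p = 0.000592), and with slide as a block 3.07 (adjusted p = 0.0781).

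The other Cxcr3 ligands were not called. Cxcl11 had levels of 9.44, 9.02 and 9.14 in WT_pre, 9.0, 9.41 and 8.76 in WT_d3, 9.68, 8.80 and 8.80 in smSocs3-KO_pre, and 8.39, 8.75 and 8.80 in smSocs3-KO_d3, on a probe that was among the 3 brightest members on average. Its groups overlapped in WT and its mean challenge response was -0.29 (adjusted p = 0.264). Cxcl9 had a response of -0.58 (adjusted p = 0.202) on its brighter probe and of 1.88 on the other.

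Cxcl13, the Cxcr5 ligand that attracts B cells to lymphoid follicles, had levels of -6.51, -5.33 and -6.62 in WT_pre, -3.53, -4.48 and -6.53 in WT_d3, -4.52, -2.75 and 2.32 in smSocs3-KO_pre, and -0.14, 0.28 and 4.03 in smSocs3-KO_d3. No WT_pre array and 1 of 3 WT_d3 arrays were well above background, against 2 of 3 and 3 of 3 in the smSocs3-KO groups. Its levels within smSocs3-KO_pre spanned more than 6 log2 units, and the mean challenge response did not pass (adjusted p = 0.178).

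Cxcl12, the Cxcr4 ligand of stromal cells, had levels of 2.45, 2.73 and 3.29 in WT_pre, 4.79, 4.04 and 3.22 in WT_d3, 2.40, 3.32 and 2.66 in smSocs3-KO_pre, and 4.50, 3.64 and 2.72 in smSocs3-KO_d3. The challenge groups overlapped in both genotypes, and the response of 1.01 (SE 0.35) missed the threshold (adjusted p = 0.0566). The second probe of Cxcl12 gave 1.60. Cxcl12 passed, at adjusted p = 0.0283, when the mean of its probes stood for the gene. It also passed with all 12 arrays above background, with a variance trend, and without replicate 4 of WT_d3, replicate 3 of smSocs3-KO_pre or replicate 5 of smSocs3-KO_d3. Cxcl1, a Cxcr2 ligand for neutrophils, had a response of 1.29 (adjusted p = 0.0808) and Cxcl5 of 0.18 (adjusted p = 0.863). The membrane-bound Cxcr6 ligand Cxcl16 had a response of 0.60 (adjusted p = 0.0601).

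Ccl19, a Ccr7 ligand, had levels of 2.86, 2.84 and 3.01 in WT_pre, 3.49, 3.61 and 3.21 in WT_d3, 2.67, 2.59 and 2.41 in smSocs3-KO_pre, and 4.39, 3.27 and 3.78 in smSocs3-KO_d3. All day 3 arrays exceeded the pre arrays of their genotype. The mean challenge response was 0.89 (SE 0.17, adjusted p = 0.00914), or 1.86-fold, and the 3 probes of the gene gave 0.89, 0.96 and 0.89. Ccl27a, a Ccr10 ligand, had levels of 2.91, 2.66 and 3.0 in WT_pre, 1.61, 1.90 and 2.80 in WT_d3, 3.27, 3.13 and 3.22 in smSocs3-KO_pre, and 2.22, 2.65 and 1.95 in smSocs3-KO_d3. It was lower on all smSocs3-KO_d3 arrays than on the smSocs3-KO_pre arrays and on 2 of 3 WT_d3 arrays than on the WT_pre arrays. It fell by 0.84 on the log2 scale (SE 0.20, adjusted p = 0.0165). Mouse chromosome 4 is known to hold near-identical copies of Ccl19 and Ccl27a, so that these probes may read several genes.

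Ccl17, a Ccr4 ligand of dendritic cells and macrophages, had levels of -3.88, -6.10 and -5.02 in WT_pre, -2.04, -1.06 and -4.95 in WT_d3, -4.87, -4.77 and -4.60 in smSocs3-KO_pre, and -0.87, -2.50 and -1.66 in smSocs3-KO_d3. No smSocs3-KO_pre array was well above background, and the smSocs3-KO_d3 mean was at least 6.64-fold higher than the lowest signal above background (adjusted p = 0.0802). In WT the difference was 2.32 (adjusted p = 0.124), with replicate 4 of WT_d3 among the WT_pre arrays. Ccl17 was called higher in the mean challenge response (adjusted p = 0.0143). Cx3cl1, the membrane-anchored ligand fractalkine, had levels of 1.55, 1.95 and 2.12 in WT_pre, 2.34, 2.63 and 1.83 in WT_d3, 1.70, 1.89 and 1.80 in smSocs3-KO_pre, and 2.88, 2.36 and 2.85 in smSocs3-KO_d3. It was higher on all smSocs3-KO_d3 arrays than on the smSocs3-KO_pre arrays, and replicate 4 of WT_d3 lay among the WT_pre arrays. It rose by 0.65 (SE 0.17, adjusted p = 0.0222). The rise missed the threshold without replicate 1 of WT_pre or WT_d3 or replicate 2 or 5 of smSocs3-KO_d3. It also missed with the replicate number as a block (adjusted p up to 0.101 over the alternatives).

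Ccl25, a Ccr9 ligand of thymus and gut, had levels of -0.78, -0.68 and -0.69 in WT_pre, 0.10, 0.42 and -0.11 in WT_d3, -0.65, -0.44 and -0.46 in smSocs3-KO_pre, and -0.24, -0.11 and 0.74 in smSocs3-KO_d3. Day 3 arrays were above the pre arrays in each genotype, and the response was 0.75 (SE 0.17, adjusted p = 0.0147). Its other probes gave 0.37 and -0.84, and with the mean of its probes the response was 0.09 (adjusted p = 0.777), so that the call rests on 1 probe. Ccl24, a second eotaxin, had a response of -0.69 (adjusted p = 0.146).

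**Figure D3:**
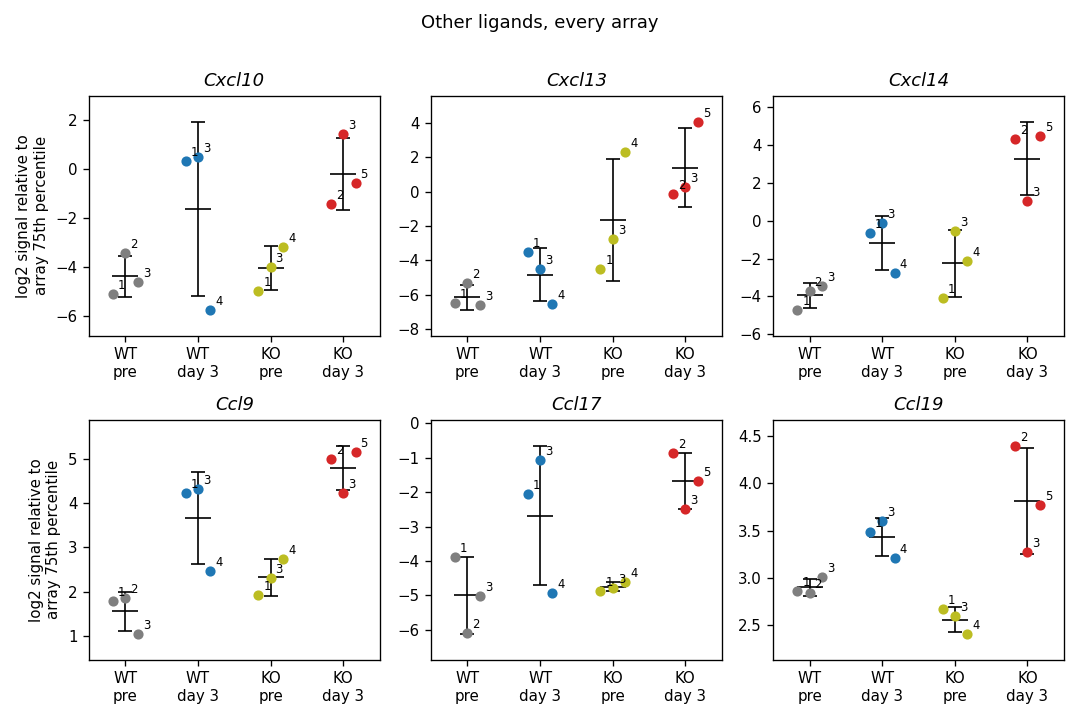
Levels (log2 signal relative to the 75th percentile of the array) of Cxcl10, Cxcl13, Cxcl14, Ccl9, Ccl17 and Ccl19, 1 point per array numbered by replicate, with the group mean as a dash and its SD as a bar. Ccl9, Cxcl14 and Ccl19 separate day 3 from pre arrays in both genotypes, and Cxcl13 is higher on the smSocs3-KO arrays at both times with a wide spread.

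The receptor for Ccl2, Ccl7 and Ccl12 rose with them. Ccr2, carried by inflammatory monocytes, had levels of -1.99, -1.88 and -2.31 in WT_pre, 1.0, 0.43 and -2.45 in WT_d3, -2.29, -1.07 and -0.71 in smSocs3-KO_pre, and 1.98, 0.88 and 0.45 in smSocs3-KO_d3. The smSocs3-KO groups did not overlap, and replicate 4 of WT_d3 was below all WT_pre arrays while the other WT_d3 arrays were above them. Group means were -2.06 ± 0.22, -0.34 ± 1.84, -1.36 ± 0.83 and 1.11 ± 0.79 (SD, n = 3 each). The mean challenge response was 2.09 (SE 0.55, 95% interval 0.88 to 3.30, adjusted p = 0.0232), or 4.26-fold. It passed under 16 of 21 alternatives, with adjusted p up to 0.0838. It missed the threshold without replicate 1 of WT_pre, WT_d3 or smSocs3-KO_pre, without replicate 2 of smSocs3-KO_d3, and with the replicate number as a block. It was 2.62 (adjusted p = 0.000784) without replicate 4 of WT_d3.

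Cx3cr1, the fractalkine receptor of monocytes and resident macrophages, had levels of 0.09, 0.58 and 0.89 in WT_pre, 2.18, 2.10 and 0.73 in WT_d3, -0.34, 1.05 and 0.87 in smSocs3-KO_pre, and 1.76, 1.82 and 0.73 in smSocs3-KO_d3. Both challenge comparisons overlapped, and the response of 1.03 (SE 0.34) missed the threshold (adjusted p = 0.0514), while its second probe gave 1.51. It was called under 6 of 21 alternatives, namely all 12 arrays above background, the mean of its probes, a variance trend, and without replicate 4 of WT_d3, replicate 3 of smSocs3-KO_pre or replicate 5 of smSocs3-KO_d3.

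Ccr9 and Cxcr6, receptors of T cell subsets, fell. Ccr9 had levels of -1.77, -0.91 and -3.18 in WT_pre, -4.05, -3.25 and -3.95 in WT_d3, -1.95, -4.19 and -2.07 in smSocs3-KO_pre, and -4.16, -4.67 and -4.70 in smSocs3-KO_d3. WT_d3 lay wholly below WT_pre, and the smSocs3-KO groups overlapped through replicate 3 of smSocs3-KO_pre. The response was -1.79 (SE 0.45, adjusted p = 0.0202), and its second probe gave -1.68. It missed the threshold without replicate 1 of WT_pre or of WT_d3 and with the replicate number as a block. Adjusted p reached 0.0772 over the alternatives. Cxcr6 had levels of -0.87, -1.09 and -0.53 in WT_pre, -1.19, -1.03 and -1.09 in WT_d3, -0.91, -0.60 and -0.79 in smSocs3-KO_pre, and -1.47, -1.02 and -1.83 in smSocs3-KO_d3. It was lower on all smSocs3-KO_d3 arrays than on the smSocs3-KO_pre arrays and overlapped in WT. The response of -0.47 (SE 0.15) was at the edge of the threshold (adjusted p = 0.0480) and passed under 3 of 21 alternatives. Leaving out any array but replicate 3 of smSocs3-KO_d3 ended the call.

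Receptors of other named ligands showed no common direction. Ccr7, the Ccl19 receptor, had levels of -2.56, -2.20 and -1.51 in WT_pre, -2.45, -2.11 and -3.17 in WT_d3, -3.15, -2.13 and -2.09 in smSocs3-KO_pre, and -2.03, -1.02 and -2.99 in smSocs3-KO_d3. Its groups overlapped and its response was -0.02 (adjusted p = 0.969), of either sign across the other ways of processing. Cxcr3, the Cxcl10 receptor, had levels of -3.39, -3.04 and -2.82 in WT_pre, -3.44, -4.18 and -3.75 in WT_d3, -3.32, -2.64 and -3.05 in smSocs3-KO_pre, and -2.82, -1.96 and -2.81 in smSocs3-KO_d3. It was lower on the WT_d3 arrays than on the WT_pre arrays and overlapped between the smSocs3-KO groups, with a response of -0.12 (adjusted p = 0.698) that was also of either sign. Cxcr7, the scavenger receptor of Cxcl12 now called Ackr3, had levels of 3.65, 4.38 and 4.22 in WT_pre, 4.22, 4.73 and 4.34 in WT_d3, 3.11, 4.57 and 4.13 in smSocs3-KO_pre, and 4.04, 4.81 and 5.18 in smSocs3-KO_d3 and a response of 0.54 (adjusted p = 0.167). Cxcr4 had a response of 0.32 (adjusted p = 0.473) and Ccr6, the Ccl20 receptor, of -0.09 (adjusted p = 0.885).

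**Figure D4:**
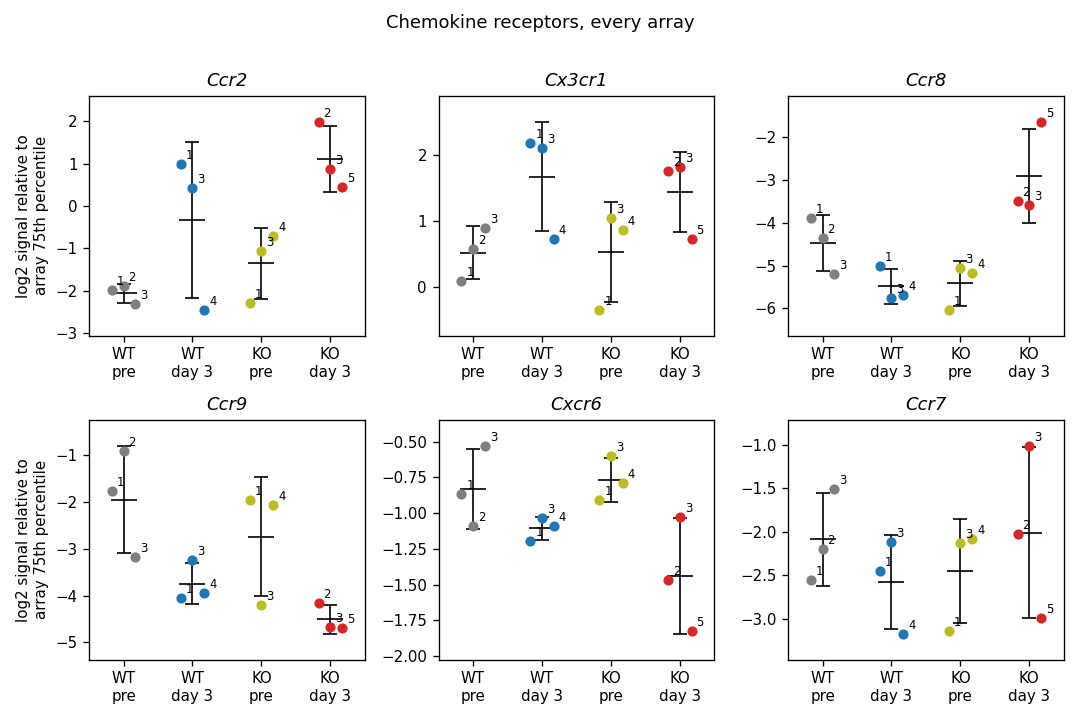
Levels (log2 signal relative to the 75th percentile of the array) of Ccr2, Cx3cr1, Ccr8, Ccr9, Cxcr6 and Ccr7, 1 point per array numbered by replicate, with the group mean as a dash and its SD as a bar. Ccr2 is higher on the day 3 arrays except replicate 4 of WT_d3, which is below the WT_pre arrays. Ccr8 is highest in smSocs3-KO_d3, the only group through which it passed the background filter, and WT_d3 and smSocs3-KO_pre lay below background for it. Ccr9 is lower on the WT_d3 than on the WT_pre arrays and overlaps between the smSocs3-KO groups.

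Set side by side by receptor, the Ccr2 ligands Ccl2, Ccl7 and Ccl12 and the Ccr8 agonist Ccl8 were called higher, and so were 4 of the 7 ligands Ccl3, Ccl4, Ccl5, Ccl6, Ccl9, Ccl11 and Ccl24. Of the 3 ligands of Cxcr3, 1, Cxcl10, was called. These counts stand beside 13.6% of all genes called higher. Ccl3, Ccl4 and Cxcl10 had passed the background filter through smSocs3-KO_d3 only, which favours a rise. Of the 2 tested ligands of Cxcr2, 0 passed limma's adjusted threshold and 1 had an unadjusted p under 0.05.

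Within each genotype fewer members passed. In WT, Ccl9, Ccl12 and Ccl8 rose, 3 of 37 called higher beside 3.59% of all genes. The differences were 2.11 (SE 0.47, adjusted p = 0.0385) for Ccl9, 2.92 (adjusted p = 0.0416) for Ccl12 and 2.60 (adjusted p = 0.0475) for Ccl8. Ccl2 (4.12, adjusted p = 0.0639) and Ccl7 (4.12, adjusted p = 0.0630) had larger differences and a wider spread. Ccr2 had a WT difference of 1.72 (adjusted p = 0.186). Leaving out replicate 4 of WT_d3 raised the WT count to 16, beside 16% of genes, and Ccl2 then rose by 5.71 (adjusted p = 0.00170), Ccl7 by 5.58 (adjusted p = 0.00395) and Ccr2 by 2.77 (adjusted p = 0.00762). Leaving out any 1 of the 3 WT_pre arrays or of the other 2 WT_d3 arrays brought the WT count to 0. In those fits 0.00% to 0.0391% of genes were called. The count was also 0 without replicate 4 of smSocs3-KO_pre (0.0131% of genes) or replicate 2 of smSocs3-KO_d3 (2.80%). It was 1 without replicate 3 of smSocs3-KO_d3 (2.33%), 2 without its replicate 5 (3.40%) and 6 without replicate 1 of smSocs3-KO_pre (9.96%). The smSocs3-KO arrays bear on the WT count, since all 12 arrays share 1 estimate of the spread.

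In smSocs3-KO, Ccl9, Ccl19, Cxcl14 and Ccr8 rose, 4 of 37 called higher beside 1.71% of all genes. Of these, Ccr8 passed the background filter through smSocs3-KO_d3 only and Cxcl14 through the day 3 groups only, which favours a rise. The differences were 2.46 (adjusted p = 0.0329) for Ccl9, 1.26 (adjusted p = 0.0360) for Ccl19 and 5.54 (SE 1.08, adjusted p = 0.0348) for Cxcl14. Ccl2 (3.98, adjusted p = 0.0877), Ccl7 (4.28, adjusted p = 0.0733) and Ccr2 (2.46, adjusted p = 0.102) did not pass. Within the second slide, where 2 smSocs3-KO_pre arrays met the 3 smSocs3-KO_d3 arrays, the Ccl2 difference was 3.44 (adjusted p = 0.242). With slide as a block 0 members passed limma's threshold, beside 0.228% of genes. At an unadjusted p under 0.05 there were 17 of 37, beside 16.9% of genes. The smSocs3-KO count was also 0 without any 1 of the WT_pre arrays, without replicate 1 or 3 of smSocs3-KO_pre and without replicate 2 or 5 of smSocs3-KO_d3. In those fits 0.184% to 1.01% of genes were called. The count was 1 without replicate 4 of smSocs3-KO_pre (1.63% of genes), 6 without replicate 1 of WT_d3 (2.87%) and 17 without replicate 4 of WT_d3 (8.28%).

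A threshold of unadjusted p under 0.01 with more than a 4-fold change gave more members. It called 6 in WT, beside 1.28% of genes, namely Ccl2, Ccl6, Ccl7, Ccl8, Ccl9 and Ccl12. In smSocs3-KO it called 13, beside 1.63% of genes, which held those 6 and, among others, Ccl3, Ccl4, Ccl17, Cxcl14, Ccr2 and Ccr8. All of those named were higher at day 3. Among them, Ccl3, Ccl4, Ccl17 and Ccr8 passed the background filter through smSocs3-KO_d3 only and Cxcl14 through the day 3 groups only. Such entry favours a rise, so that the count of 13 is not on equal terms with the share of all genes.

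Few members were called between the labelled genotypes. Before challenge 0 of 37 members passed limma's adjusted threshold, beside 0.0264% of genes, and 2 had an unadjusted p under 0.05. Only Ccl8 passed the 4-fold threshold there, beside 0.242% of genes, with smSocs3-KO_pre higher by 2.17 (adjusted p = 0.748). Replicate 1 of smSocs3-KO_pre, on the slide of the WT arrays, was higher than WT_pre by 0.70 in the fit with slide as a block. Cxcl13 was well above background on none of the WT_pre arrays and on 2 of the 3 smSocs3-KO_pre arrays, and did not pass (adjusted p = 1.0).

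At day 3 the receptor Ccr8 was the 1 member called, higher in smSocs3-KO_d3 than in WT_d3, beside 0.958% of genes called higher. Of 37 members, 9 had an unadjusted p under 0.05 in limma, beside 16.2% of genes, and 30 were higher in smSocs3-KO_d3. The median difference was 0.55 over ligands and 0.92 over receptors, beside -0.08 over all genes. Across the other ways of processing these medians ran from 0.11 to 0.94 and from -0.47 to 1.20. Slide and genotype cannot be told apart here. Ccr8, carried by regulatory and type 2 helper T cells and some macrophages, had levels of -3.88, -4.35 and -5.19 in WT_pre, -5.02, -5.75 and -5.68 in WT_d3, -6.03, -5.05 and -5.17 in smSocs3-KO_pre, and -3.49, -3.59 and -1.65 in smSocs3-KO_d3. It was well above background on all 3 smSocs3-KO_d3 arrays and on 1 of the other 9 arrays, a WT_pre array. Ccr8 thus passed the background filter through smSocs3-KO_d3 only, the group in which it was called higher, which favours that call. With no filter on dim probes it was not called. Measured means were -4.47 ± 0.66, -5.48 ± 0.41, -5.42 ± 0.53 and -2.91 ± 1.1 (SD, n = 3 each). The smSocs3-KO_d3 mean was at least 3.01-fold higher than smSocs3-KO_pre (adjusted p = 0.0394) and at least 2.58-fold higher than WT_d3 (adjusted p = 0.0456). The second Ccr8 probe was never well above background. The adjusted p of the day 3 difference was 0.391 with slide as a block and 0.0640 without replicate 4 of WT_d3. Ccr8 remained called without replicate 1 of smSocs3-KO_pre or replicate 2 of smSocs3-KO_d3, and leaving out any other array ended the call. With normexp background correction, and without replicate 3 of smSocs3-KO_d3, Cxcl14 and not Ccr8 was the 1 member called, and without replicate 4 of smSocs3-KO_pre it was Cxcl13.

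By the 4-fold threshold Ccl8, Cxcl13 and Cxcl14 were also higher in smSocs3-KO_d3, 4 members with Ccr8 beside 1.11% of genes. Their differences were 2.20 (adjusted p = 0.137), 6.24 (adjusted p = 0.0981) and 4.46 (adjusted p = 0.0807). With slide as a block they were 0.0044, 1.94 and 1.70, values that rest on replicate 1 of smSocs3-KO_pre, the only smSocs3-KO array on the slide of the WT arrays. Cxcl13, like Ccr8, passed the background filter through smSocs3-KO_d3 only, which favours a higher level in that group. For Ccl2 the day 3 difference was 0.38 (95% interval -2.20 to 2.96, adjusted p = 0.911), for Ccl7 1.24 (-1.33 to 3.81, adjusted p = 0.649) and for Ccr2 1.45 (-0.27 to 3.16, adjusted p = 0.389). These intervals include differences of more than 2-fold in the direction of smSocs3-KO, and those of Ccl2 and Ccl7 also in the direction of WT. With slide as a block, which rests on the same array, the difference was -1.22 for Ccl2, -0.99 for Ccl7 and 0.042 for Ccr2.

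The test of the difference between the 2 challenge responses called 0 of 37 members (limma), beside 0.0% of genes, and 2 members had an unadjusted p under 0.05. Ccr8, which entered the test through smSocs3-KO_d3 only, passed the 4-fold threshold (0.308% of genes), with adjusted p = 0.495. The response of the median ligand was 1.02 in WT and 1.52 in smSocs3-KO, and that of the median receptor -0.34 and 0.74, beside -0.02 and -0.06 for all genes. Without a passed test these medians are not shown to differ.

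**Figure D5:**
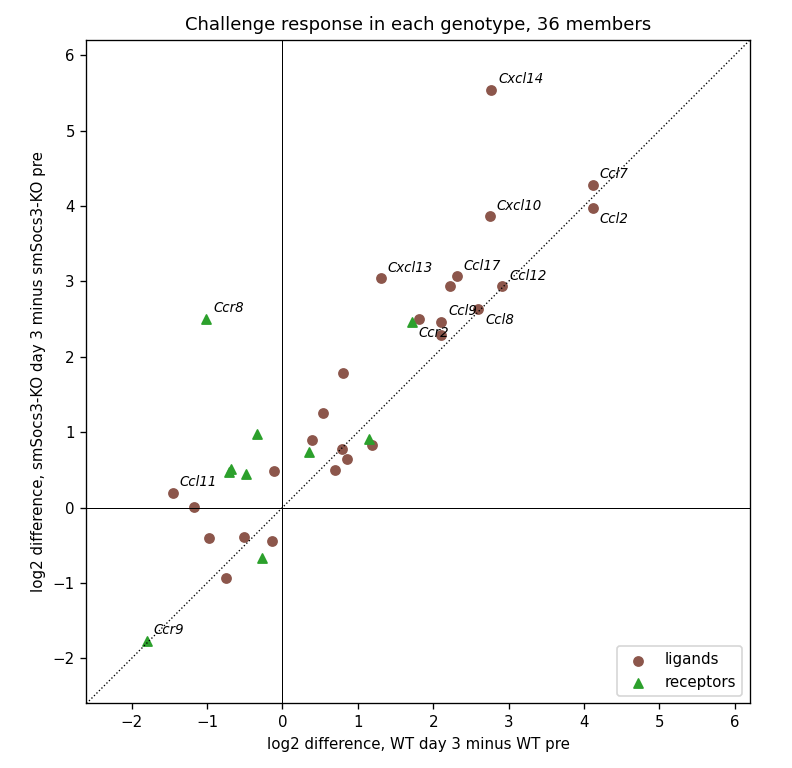
Challenge response in WT (horizontal axis) against the response in smSocs3-KO (vertical axis), both as log2 difference of day 3 minus pre, for 36 of the members tested, with circles for ligands, triangles for receptors and a dotted line where both are equal. Ccl2, Ccl7, Ccl12, Ccl8, Ccl9 and Ccl6 lie high on both axes and near the line, and Ccr8 and Cxcl14 lie above it. The points of Ccl1, Ccl3, Ccl17, Cxcl13 and Ccr8 are not measured folds because a group lay below background.

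Of 12 tested markers of monocytes and macrophages, 10 were higher and 0 lower in the mean challenge response, beside 13.6% of all genes higher and 9.18% lower. Their summed level ranged from 7.97 to 8.24 in WT_pre, 8.07 to 8.80 in WT_d3, 7.87 to 8.66 in smSocs3-KO_pre and 8.72 to 9.0 in smSocs3-KO_d3. No tested gene bore the listed names Adgre1 and Ly6c2, whether absent from the array under those names or too dim. Itgam, the brightest probe of the list, did not pass (-0.31, adjusted p = 0.413) and made up 57.4% to 67.0% of that sum in WT_pre and 16.3% to 25.5% in smSocs3-KO_d3. Without it the summed level ranged from 6.57 to 6.90 in WT_pre, 7.19 to 7.87 in WT_d3, 6.74 to 7.37 in smSocs3-KO_pre and 8.29 to 8.74 in smSocs3-KO_d3. Ptprc, the pan-leukocyte gene, had its lowest WT_d3 level, -2.37, on replicate 4, the array on which Ccl2, Ccl7 and Ccr2 were lowest in that group. Of 7 T cell markers, 0 were higher and 3 lower, with a summed level from 2.31 to 2.97 in WT_pre, 2.06 to 2.55 in WT_d3, 2.21 to 2.75 in smSocs3-KO_pre and 1.76 to 2.47 in smSocs3-KO_d3. The listed names Cd8a and Trac were likewise not among the tested genes. Mesothelial markers, with 0 of 6 called by limma in the mean challenge response and 1 at an unadjusted p under 0.05, summed to between 2.0 and 4.55 in WT_pre and 1.47 and 3.82 in WT_d3 against 4.86 to 6.05 in smSocs3-KO_pre and 4.98 to 5.44 in smSocs3-KO_d3, beside the Cxcl13 and Ccl8 levels of those groups. Between the genotypes limma called 0 of the 6, with 5 higher or lower at an unadjusted p under 0.05 before challenge and 5 at day 3. The median smSocs3-KO minus WT difference of these markers was 2.12 before challenge and 2.65 at day 3. Of the other lists, 2 of 7 neutrophil, 2 of 7 fibroblast, 1 of 8 endothelial and 1 of 4 erythroid markers were higher, and 2 of 7 smooth muscle markers were lower. Limma called 0 of 5 B cell, 0 of 4 dendritic cell and 0 of 6 adipocyte markers, with 1, 0 and 0 at an unadjusted p under 0.05. The part of these cell types in the results was not tested.

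Genes that work with the members were read from 3 lists, whose counts stand beside 13.6% of all genes higher and 9.18% lower. Of 14 tested chemokine-related genes outside the naming rule, 6 were higher and 1 lower, among them the formyl peptide receptors Fpr1 (2.74) and Fpr2 (1.76) and the receptor-like Ccr1l1 (1.94). Of 20 genes of chemokine receptor signalling, 11 were higher and 0 lower, including the integrin subunit Itgb2 (1.68), the PI3-kinase subunit Pik3r5 (1.42) and the GTPase Rac2 (1.34). Of 21 regulators of chemokine transcription, 5 were higher and 1 lower, with Il6 at 5.60, Socs3 at 1.78, Osmr at 1.11 and the NF-kB subunit Rela at -0.37 on the log2 scale.

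The other 17 members, 9 ligands and 8 receptors, were too dim to test. On all 12 arrays 8 of them were below the background limit, namely the ligands Ccl20, Ccl22, Ccl26, Ccl28, Cxcl15 and Xcl1 and the receptors Ccr4 and Xcr1. The other 9 passed it on 1 to 4 arrays. Ccr1, the receptor of Ccl3, Ccl6 and Ccl9, was well above background on 2 arrays, both smSocs3-KO_d3. Ccr3, the eotaxin receptor, passed on 2 arrays, Ccr10, the Ccl27a receptor, on 4 and Cxcr5, the Cxcl13 receptor, on 3, while Ccr4, the Ccl17 receptor, never did. Cxcl17, a mucosal ligand, passed on 4 arrays. Of the neutrophil ligands and receptors, Cxcl2, Cxcl3 and Cxcr1 passed on 1 array each and Cxcr2 on 2. For 12 of the 54 genes the array had more than 1 probe. In 9 of these more than 1 probe was well above background on some array, and the probes of 2, Ccl25 and Cxcl9, differed in sign.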

How the data were processed

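Levels were read from 12 Agilent one-colour arrays (Cy3) of aortic RNA, grouped by the sample labels. The authors deposited scanner output made with Feature Extraction (version 10.7.1.1 per the file headers, 9.5.1.1 per the submitters' notes), in which the processed signal is a linear intensity per spot after background subtraction and detrending. A deposited table of processed intensity values of the same arrays, on a linear scale, was used as an alternative. Its columns matched the scanner values of the same array with a rank correlation (Spearman) no lower than 0.99997. Precision is limited by 3 arrays per group, since arrays give no counts.

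From the deposited intensity, log2 was taken and the 75th percentile of each array subtracted. Control spots and outlier spots were left out and spots of a probe averaged. A probe was kept if its signal exceeded background by 13 SD, the limit used by Feature Extraction, throughout at least 1 group, and 32283 of 55681 probes passed. Genes were represented by their brightest kept probe, for 22761 genes. Missing values in the fit numbered 4. limma 3.58.1 in R 4.3.3 fitted 4 group means over the 12 arrays with eBayes, and p-values were adjusted over all genes by the Benjamini-Hochberg method. The calls are at adjusted p under 0.05 and, as a second rule, at p under 0.01 with a fold above 4 or under 0.25. With 3 arrays against 3, an exact permutation test of 1 gene could not pass either threshold. A probe not well above background on any array of a group has only a bound there. A bound is the mean of the bright group over the mean, per array of the dim group, of the higher of the probe's own signal and the lowest signal among probes well above background.

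Members and lists were chosen with earlier results of these data known. Values on every array are given for Ccl2, Ccl7 and Ccr2, for members called by either rule, for kept receptors of those ligands and for the 3 brightest other members. Some other members are named with their response alone, and 1 receptor gene is counted among the members but not reported here. The alternatives were normexp background correction (offset 50) with quantile normalization, quantile normalization alone, the authors' table, no filter, all 12 arrays above background, the mean of probes, only the groups compared, slide or replicate number as a block, a variance trend with robust moderation, and leaving out each array. Gene names are those of the array design, with probe positions in mm9. Promoters are from RefSeq (GRCm38.p6), and no position was converted between builds.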

Additional observations from a re-analysis of the deposited data

How the results depend on the processing

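The WT count of 3 members became 0 with quantile normalization, the authors' table, no filter, only the arrays compared or a replicate block, and 6 with slide as a block or a variance trend, and leaving out 1 array gave 0 to 16. The smSocs3-KO count of 4 became 0 with no filter (0.497% of genes), slide as a block (0.228%) or a replicate block (0.00879%). With a variance trend it was 8, beside 3.59% of genes. Leaving out 1 array gave 0 to 17, beside 0.184% to 8.28% of genes. The day 3 genotype count of 1 became 0 with quantile normalization (0.997% of genes), the authors' table (1.02%), no filter (0.259%) or all 12 arrays above background (1.21%). It was also 0 with only the arrays compared (0.277%), slide as a block (0.00%) or a replicate block (0.00879%). Leaving out 1 array gave 0 to 1, beside 0.204% to 2.84% of genes. The 1 member was Ccr8, but Cxcl14 with normexp or without replicate 3 of smSocs3-KO_d3 and Cxcl13 without replicate 4 of smSocs3-KO_pre. The count of 19 in the mean challenge response was 4 with a replicate block, beside 3.93% of genes. Leaving out 1 array gave 14 to 23, beside 11.1% to 28.2% of genes. The labels do not say that the replicate numbers pair the arrays, and over 11 pairs the correlation of deviations ran from -0.40 to 0.46. With the replicate block, 20 members in WT, beside 23.3% of genes, and 7 in smSocs3-KO, beside 7.94%, had an unadjusted p under 0.05 in limma. For Ccr7 the mean challenge response turned to 0.050 with normexp and to 0.15 with quantile normalization, the authors' table or the replicate block, and it ran from -0.27 to 0.22 when leaving out 1 array. Cxcr3 turned to 0.034 with normexp, 0.070 with quantile normalization and 0.071 with the authors' table. The day 3 genotype difference of Ccl2 turned to -1.22 with slide as a block and -1.31 with the replicate block, and ran from -1.21 to 1.38 when leaving out 1 array. That of Ccl7 turned to -0.99 and -0.68, and ran from -0.22 to 2.14. The causes were not tested. The mean challenge responses of Ccl9 and Ccl12 passed in all 21 alternatives. With the replicate block those of Ccl2, Ccl7 and Ccr2 were not called, nor among others those of Ccl4, Ccl6, Ccl8, Ccl17, Ccl19, Ccl25, Ccl27a, Cx3cl1, Cxcl10, Ccr9 and Cxcr6. Dim members such as Ccl3, Ccl17 and Ccr8 are limited by signal over background, and genotype at day 3 by the slide.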
